A study of Rattus norvegicus with 30 samples.

Results

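The effect of 1000 µM dioctyl phthalate on rat hepatocyte RNA was compared between 48 and 24 h of exposure. The quantity is a difference of differences: treated minus vehicle at 48 h, less treated minus vehicle at 24 h. It equals the change with time at 1000 µM minus the change with time in vehicle, so each gene could be sorted by which of the 2 levels moved. The comparison used 20 of the 30 arrays, chosen by the dose and time in their titles, and covered all 14217 genes measured, of which 10528 passed a filter on low signal and were tested.

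The cells were cryopreserved hepatocytes of male Sprague Dawley rats, obtained from a supplier and cultured on collagen under a Matrigel overlay. On day 3 each well received its dose. The 4 groups used here were vehicle (1% DMSO) harvested at 24 h, vehicle harvested at 48 h, 1000 µM dioctyl phthalate in the same vehicle at 24 h, and 1000 µM at 48 h, with 5 wells per group and 1 array per well. A lower dose of 250 µM made up the other 10 arrays and lent its spread to the fit. The labels call the wells independent cultures but do not tell how many animals or vials they came from, so each error and p-value describes the spread between wells.

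Phthalate esters are broken down in liver cells to monoesters that activate PPARα, a nuclear receptor for fatty acids, which in rodents raises the enzymes of peroxisomal and microsomal fatty acid oxidation and the proteins that carry fatty acids. PPARα ligands also lower many inflammatory and acute phase genes in liver. Hepatocytes in culture change without any compound: they lose cytochrome P450 and other liver functions and gain cytoskeletal and matrix genes, so a treatment effect can differ between times because the vehicle cells have moved.

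Signals were used as log2 of the deposited intensity after adding 1, and levels below are on that scale. Arrays of one group correlated at 0.955 to 0.981. In the vehicle group at 48 h, 4 of 5 arrays stood apart in the log2 ratio of the beta-actin control probe sets at the 3' and 5' ends, a measure that rises when RNA or its labelled copy is shortened. Replicates 1, 2, 3 and 5 had 2.44, 1.74, 1.70 and 1.66, while replicate 4 had 1.04. The group means were 1.14 ± 0.08 in vehicle at 24 h, 1.72 ± 0.49 in vehicle at 48 h, 1.14 ± 0.10 at 1000 µM at 24 h and 1.30 ± 0.14 at 1000 µM at 48 h (SD, n = 5). Vehicle at 48 h differed from vehicle at 24 h with p = 0.0397 (exact permutation test, two-sided) and an adjusted p of 0.159 over 12 such tests. The same ratio for Gapdh was 0.28, 0.22, 0.24 and 0.23 in replicates 1, 2, 3 and 5 of vehicle at 48 h and 0.13 in replicate 4. In it vehicle at 48 h was above vehicle at 24 h and above 1000 µM at 48 h. By the same permutation test each had p = 0.0397 and an adjusted p of 0.159. Every gene result below was therefore also computed without those 4 arrays, which leaves 1 vehicle array at 48 h and assumes that it varies like the arrays of the other groups.

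**Figure D1:**
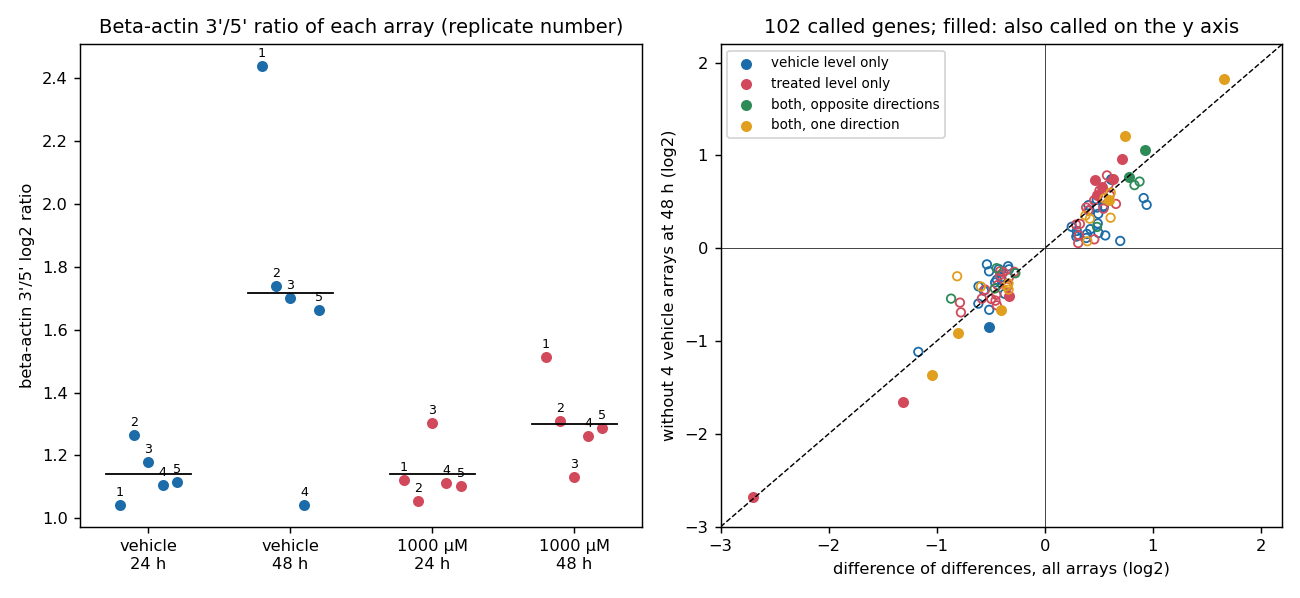
Left, the log2 ratio between the 3' and 5' beta-actin control probe sets on each of the 20 arrays, with replicate numbers and the group mean as a line; vehicle replicates 1, 2, 3 and 5 at 48 h lie at 1.66 to 2.44. Right, the log2 difference of differences of the 102 called genes with all arrays against the same without those 4 arrays; filled points are the 18 genes called both ways, and the dashed line marks equal values.

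The hepatocyte marker albumin (Alb) was strongly expressed, from 15.50 to 16.50 over the 20 arrays. Asgr1, another hepatocyte marker, was called in the difference of differences, at 0.42. Of the markers of other cells, 5 of 9 measured stellate, 6 of 8 Kupffer and leukocyte, 3 of 6 endothelial and 1 of 5 cholangiocyte genes (Epcam) were above the low-signal limit. The summed cholangiocyte signal was 10623 to 11498 in vehicle at 24 h, 12641 to 15599 in vehicle at 48 h, 10338 to 11145 at 1000 µM at 24 h and 11454 to 12927 at 1000 µM at 48 h. The summed Kupffer and leukocyte signal ran from 21319 to 28262, 20424 to 22522, 24346 to 27596 and 20985 to 23469 in the same order. The stellate sums were 3300 to 4760, 3596 to 4203, 3634 to 4154 and 3279 to 4490, and the endothelial sums 1217 to 2243, 1187 to 1926, 1743 to 2153 and 1434 to 1955. No marker gene of these 4 lists was called in the difference of differences, and the part of such cells in the results was not tested. Fewer cells of a type and less RNA per cell cannot be told apart in these arrays.

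The stretches before the start of 2 genes are printed because they stand for the 2 sides of the sort: the fatty acid carrier Fabp1 mainly through a treated rise, the cytochrome P450 Cyp3a2 mainly through a vehicle fall. Each is the 250 bases before the start in RefSeq, build GRCr8, 5′ to 3′ on the gene's own strand. Fabp1 lies on the plus strand, with the printed stretch at chr4:104749090-104749339, and Cyp3a2 on the minus strand, with its stretch at chr12:14343858-14344107. Capitals mark matches to nuclear receptor motifs, searched on both strands with the genes already known.
Fabp1: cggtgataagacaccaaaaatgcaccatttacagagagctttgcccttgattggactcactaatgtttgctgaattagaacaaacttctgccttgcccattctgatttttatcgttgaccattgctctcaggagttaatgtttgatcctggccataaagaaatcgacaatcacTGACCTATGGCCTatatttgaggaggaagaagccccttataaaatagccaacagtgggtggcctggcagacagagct
Cyp3a2: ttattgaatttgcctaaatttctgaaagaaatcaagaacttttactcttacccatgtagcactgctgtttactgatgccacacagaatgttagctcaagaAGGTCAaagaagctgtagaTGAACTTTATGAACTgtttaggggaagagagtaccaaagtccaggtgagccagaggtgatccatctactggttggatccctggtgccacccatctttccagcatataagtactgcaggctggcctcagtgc
The capitals in Fabp1 match, on the opposite strand and from 77 bases before the start, a pair of AGGNCA and AGGTCA with 1 base between them, the spacing that PPARα and its partner RXR bind. In Cyp3a2 the first capitals are a single AGGTCA 150 bases before the start. Its second run, from 131 bases before the start, is a pair of AGTTCA on the opposite strand with 3 bases between them, a spacing that the receptor PXR binds. Over 33469 RefSeq windows of 250 bases before to 50 after a start, 16.2% held AGGTCA, 0.0896% held the first pair and 0.00598% the second. AGGTCA is contained in the first pair. Of the 102 called genes, 76 had a window, and 17 of these (22.4%) held AGGTCA in at least 1 window, while each pair occurred in 1 gene. The 22.4% is a share of genes, which can have several windows, and the 16.2% a share of single windows. The 2 shares are therefore not comparable. A match is a description of the letters and not a binding site. Because the genes were known when the motifs were searched, the shares do not measure how unexpected these matches are.

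The 1000 µM effect differed between times for few genes. Of 10528 tested, 102 (0.969%) were called, meaning a Benjamini-Hochberg adjusted p under 0.05 in limma. The difference was positive for 55 (0.522%) and negative for 47 (0.446%). Without an adjustment 1206 genes had p under 0.05. The called differences had a median size of 0.48 and a smallest size of 0.25, and 5 genes reached a 2-fold difference: Cyp3a2, Il1r2, Npy, Gpx8 and S100a6. Across all tested genes the median was -0.02, and the central 95% lay between -0.51 and 0.56. The effect itself was wide at each time, with 2051 genes (19.5%) called at 24 h and 3132 (29.7%) at 48 h. With array medians set equal, 16 genes were called, 6 positive and 10 negative. Leaving out vehicle replicate 4 at 48 h raised the count to 322 and leaving out vehicle replicate 1 at 24 h raised it to 203, while leaving out any of 5 others (vehicle replicate 4 at 24 h, vehicle replicate 3 at 48 h, treated replicate 3 at either time, treated replicate 5 at 48 h) lowered it to between 63 and 65.

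Levels moved with time in vehicle for 2963 genes (28.1%) and at 1000 µM for 1897 (18%). With the actin ratio as a covariate these counts were 750 and 1705, and without the 4 arrays 146 and 2113, so which of the counts was larger turned. Sorting the 102 genes by these calls gave 37 in which only the vehicle change was called, 39 in which only the treated change was called, 9 in which both were called in opposite directions and 17 in which both were called in one direction. No called gene lacked both. The vehicle change was the larger in size for 47 genes and the treated change for 55. An uncalled change is not evidence of a constant level, so the classes say which movement passed the test and the difference itself is what was tested.

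**Figure D2:**
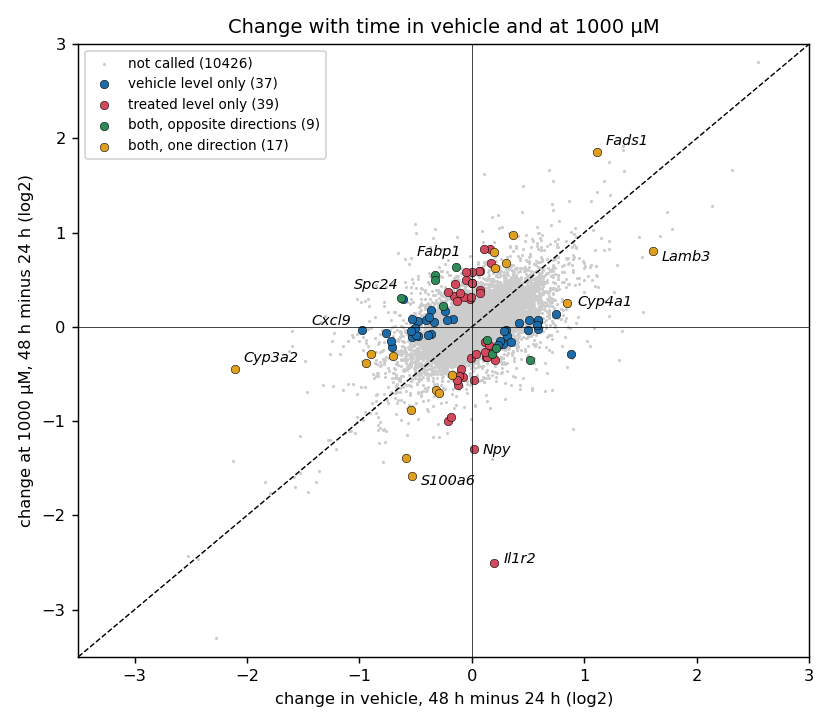
Change with time in vehicle (horizontal) against change with time at 1000 µM (vertical), 48 h minus 24 h in log2, for 10528 tested genes; the 102 genes called in the difference of differences are coloured by class and the dashed line marks equal change. Il1r2 and Npy lie near 0 in vehicle and far below 0 at 1000 µM, whereas Cyp3a2 lies far left at -2.11 in vehicle and at -0.45 when treated.

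Among genes whose vehicle level moved, 21 had a positive and 16 a negative difference. Cxcl9 encodes a chemokine that interferon-gamma induces and that draws T cells. Its levels (probe set 1382454_at) were 11.96, 11.93, 11.96, 12.11 and 12.15 in vehicle at 24 h and 10.70, 10.96, 11.09, 11.52 and 10.96 at 48 h. At 1000 µM they were 12.28, 12.38, 12.37, 12.32 and 12.44 at 24 h and 12.21, 12.06, 12.69, 12.37 and 12.31 at 48 h. The vehicle arrays at 48 h all lay below those at 24 h, with replicate 4 the highest of them, and the treated arrays overlapped between times. Vehicle fell by 0.98 ± 0.11 (log2, SE), the treated change was -0.03, and the difference was 0.94 ± 0.15 (adjusted p = 0.000417). Without the 4 arrays the difference was 0.47 and its adjusted p 0.296. With the actin ratio as a covariate it was 0.69 (adjusted p = 0.000566).

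Cebpa encodes a transcription factor that maintains liver-specific expression. Probe set 1384127_at gave levels of 12.39, 12.51, 12.61, 12.45 and 12.32 in vehicle at 24 h and 11.85, 12.06, 11.97, 11.79 and 11.93 at 48 h. Treated levels were 12.05, 12.02, 12.08, 11.95 and 11.82 at 24 h and 12.17, 11.90, 12.17, 11.95 and 12.13 at 48 h. Vehicle arrays separated by time, from the higher 24 h to the lower 48 h, and treated arrays overlapped. The treated level was below vehicle at 24 h by 0.47 (adjusted p = 4.88e-06) and stood at 0.14 relative to vehicle at 48 h (adjusted p = 0.135). The difference of 0.61 ± 0.10 (adjusted p = 0.000616) held without the 4 arrays, at 0.75 with an adjusted p of 0.0089.

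Cryab, a small heat shock protein, moved the other way. Its levels (probe set 1370026_at) in vehicle were 12.95, 12.84, 12.90, 12.88 and 12.99 at 24 h and 13.30, 13.40, 13.54, 13.83 and 13.40 at 48 h. At 1000 µM they were 12.64, 12.60, 12.69, 12.68 and 12.79 and 12.42, 12.84, 12.83, 12.88 and 12.78. All vehicle arrays at 48 h were above all those at 24 h, and the treated arrays overlapped, with replicate 1 the lowest at 48 h. Vehicle rose by 0.58 ± 0.08, and the difference was -0.52 ± 0.12 (adjusted p = 0.0274), or -0.85 without the 4 arrays (adjusted p = 0.0057). Cebpa and Cryab were the 2 of 37 genes of this class that were still called without those arrays.

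Pfkp, the platelet form of the glycolytic enzyme phosphofructokinase, had vehicle levels of 11.86, 12.21, 12.35, 12.11 and 12.13 at 24 h and 12.89, 12.89, 12.96, 12.86 and 12.82 at 48 h (probe set 1372182_at). Treated levels were 12.07, 12.13, 12.08, 12.18 and 12.35 at 24 h and 12.20, 12.36, 12.26, 12.43 and 12.25 at 48 h. Vehicle rose with no overlap, by 0.75 ± 0.07, the treated arrays overlapped with a change of 0.14, and the difference was -0.61 ± 0.10 (adjusted p = 0.000603). Gpx8, a glutathione peroxidase family member of the endoplasmic reticulum, had the largest difference of the class: -1.17 ± 0.26 (adjusted p = 0.0172). Its vehicle levels rose from 8.83 ± 0.29 to 9.71 ± 0.12, and its treated levels were 9.05 ± 0.22 and 8.76 ± 0.33 (SD, n = 5). Without the 4 arrays the differences were -0.60 for Pfkp (adjusted p = 0.0794) and -1.12 for Gpx8 (adjusted p = 0.26), close in size and no longer called.

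Other genes of this class belong to several liver functions. Positive differences, with vehicle falling, were 0.42 for Asgr1, a subunit of the asialoglycoprotein receptor, 0.48 for Hgd, which breaks down homogentisate from tyrosine, 0.54 for the mannose-binding lectin Mbl1, 0.41 for the sterol reductase Tm7sf2 and 0.48 for thymidine kinase Tk1. Adgrv1, an adhesion receptor, and Sh3bgrl1 had 0.92 and 0.70. Negative differences, with vehicle rising, were -0.61 for the elongation factor subunit Aff1 and -0.34 for cyclin G1 (Ccng1), a p53 target. None of these 9 was called without the 4 arrays. Of the 9, Sh3bgrl1 shrank the most, to 0.08, and its vehicle arrays at 48 h were 11.56, 11.99, 12.09, 12.70 and 12.07, with replicate 4 near the 24 h values.

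Among genes whose treated level moved, 20 had a positive and 19 a negative difference. Il1r2 encodes the decoy receptor of interleukin-1, which binds the cytokine without signalling. The levels on probe set 1387180_at were 10.65, 11.03, 11.39, 10.56 and 10.79 in vehicle at 24 h and 11.13, 11.13, 10.91, 11.05 and 11.14 at 48 h. At 1000 µM they were 10.37, 9.84, 10.31, 10.53 and 10.28 at 24 h and 7.12, 8.08, 8.31, 7.79 and 7.52 at 48 h. The vehicle arrays overlapped between times, and all treated arrays at 48 h lay below all others. The treated level fell by 2.50 ± 0.27 between times, and the effect went from -0.62 at 24 h (adjusted p = 0.112) to -3.31 at 48 h (adjusted p = 9.38e-12). The difference of -2.70 ± 0.38 (adjusted p = 7.22e-05) was the largest of all tested genes and stayed at -2.67 without the 4 arrays (adjusted p = 0.0267). The treated mean at 48 h, 7.76, was under the low-signal limit of 7.88, and with lower values raised to that limit the difference was -2.45.

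Npy encodes neuropeptide Y, a peptide transmitter. On probe set 1387154_at the levels were 11.03, 11.76, 12.18, 11.82 and 12 in vehicle at 24 h and 11.56, 11.81, 11.70, 12.12 and 11.69 at 48 h. Treated levels were 11.12, 11.30, 11.49, 11.12 and 11.51 at 24 h and 9.83, 9.95, 10.16, 10.08 and 10.05 at 48 h. Vehicle overlapped between times, replicate 1 at 24 h being the lowest, and the treated arrays separated with 48 h lower. The difference was -1.31 ± 0.20 (adjusted p = 0.000207), and -1.66 without the 4 arrays (adjusted p = 0.00346).

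Aqp7, a channel for water and glycerol and a PPARα-regulated gene, went the opposite way. Its levels (probe set 1368317_at) were 10.64, 10.57, 10.72, 10.56 and 10.70 in vehicle at 24 h and 10.85, 10.67, 10.77, 10.98 and 10.73 at 48 h. Treated levels were 11.90, 11.91, 11.95, 11.96 and 11.99 at 24 h and 12.61, 12.77, 12.93, 12.71 and 12.79 at 48 h. Treated arrays were above vehicle at both times and higher at 48 h with no overlap, while the vehicle groups overlapped. The effect was 1.30 at 24 h and 1.96 at 48 h, a difference of 0.66 ± 0.10 (adjusted p = 0.000207), which without the 4 arrays was 0.48 (adjusted p = 0.138).

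A2m, the protease inhibitor alpha-2-macroglobulin and a major acute phase protein of the rat, fell in treated cells. Probe set 1367794_at gave levels of 15.26, 15.74, 15.86, 15.70 and 15.80 in vehicle at 24 h and 15.59, 15.48, 15.51, 15.26 and 15.45 at 48 h. At 1000 µM they were 15.23, 15.38, 15.58, 15.41 and 15.57 at 24 h and 14.39, 14.47, 14.15, 14.70 and 14.47 at 48 h. The treated groups did not overlap, the vehicle groups did, and the difference was -0.78 ± 0.13 (adjusted p = 0.000744). Without the 4 arrays it was -0.59 (adjusted p = 0.203).

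Tcea3, a transcription elongation factor, showed an effect at 24 h only. The levels on probe set 1388611_at were 11.50, 11.66, 11.56, 11.51 and 11.75 in vehicle at 24 h and 11.75, 11.47, 11.54, 11.44 and 11.53 at 48 h. Treated levels were 11.16, 11.02, 10.74, 10.95 and 10.83 at 24 h and 11.62, 11.50, 11.54, 11.40 and 11.55 at 48 h. All treated arrays at 24 h were below all others, and treated and vehicle arrays overlapped at 48 h. The effect was -0.66 at 24 h (adjusted p = 1.01e-07) and -0.02 at 48 h (adjusted p = 0.867), and the difference of 0.63 ± 0.11 (adjusted p = 0.00227) was 0.74 without the 4 arrays (adjusted p = 0.024).

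The rest of this class held further enzymes. Differences were 0.71 for Gstt3 and 0.29 for Gsta3, both glutathione transferases, 0.48 for the peroxisomal thioesterase Acot8, 0.51 for Cyp8b1, the sterol 12-alpha-hydroxylase of cholic acid synthesis, and 0.47 for the steroid hydroxylase Cyp2a2. Acot8 was above vehicle by 0.91 at 24 h and 1.40 at 48 h. Gstt3, Acot8 and Cyp2a2 were also called without the 4 arrays, at 0.97, 0.58 and 0.74. Gsta3 and Cyp8b1 were not, at 0.26 and 0.62. Fibronectin (Fn1) and the complement protease C1s had negative differences, -0.41 and -0.41, and without the 4 arrays -0.25 and -0.29, neither called.

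In 9 genes vehicle and treated levels moved apart, 5 upwards and 4 downwards in the difference. Fabp1, the liver fatty acid-binding protein whose upstream stretch is printed above, had levels (probe set 1369111_at) of 12.99, 13.17, 12.97, 13.10 and 12.98 in vehicle at 24 h and 12.97, 12.86, 12.88, 12.91 and 12.87 at 48 h. At 1000 µM they were 14.64, 14.63, 14.61, 14.66 and 14.56 at 24 h and 15.31, 15.13, 15.38, 15.20 and 15.24 at 48 h. Every treated array was above every vehicle array, the treated arrays separated by time, and the vehicle groups met at 12.97. The effect was 1.58 at 24 h and 2.36 at 48 h, or 2.99-fold and 5.13-fold. The difference of 0.78 ± 0.07 (adjusted p = 1.29e-08) was made of a treated rise of 0.63 and a vehicle fall of 0.15, and it was 0.77 without the 4 arrays (adjusted p = 0.000166).

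Spc24, a subunit of the NDC80 complex that ties kinetochores to the spindle, had levels (probe set 1373026_at) of 10.42, 10.97, 10.98, 11.10 and 10.64 in vehicle at 24 h and 10.58, 9.96, 10.15, 10.06 and 10.21 at 48 h. Treated levels were 13.16, 13.18, 13.15, 13.15 and 13.05 at 24 h and 13.47, 13.44, 13.48, 13.40 and 13.42 at 48 h. The treated arrays separated by time and the vehicle groups overlapped through replicate 1 at 48 h and replicate 1 at 24 h. The effect grew from 2.32 to 3.25, a difference of 0.93 ± 0.13 (adjusted p = 7.22e-05), or 1.06 without the 4 arrays (adjusted p = 0.000601). Arrdc4, an arrestin-domain protein, went the other way. On probe set 1391808_at the levels were 11.79, 11.79, 11.79, 11.81 and 11.78 in vehicle at 24 h and 12.35, 12.37, 12.43, 11.98 and 12.41 at 48 h. Treated levels were 11.25, 11.14, 11.35, 11.21 and 11.16 and 10.93, 11.01, 10.58, 10.89 and 10.93. Both pairs of groups separated by time, vehicle upwards with replicate 4 the lowest at 48 h and treated downwards with replicate 3 the lowest. Its difference was -0.87 ± 0.12 (adjusted p = 6.45e-05), and -0.54 without the 4 arrays (adjusted p = 0.153). The sulfotransferase Sult2a6 and the glucuronosyltransferase Ugt2a1 had positive differences of 0.88 and 0.83, and Ankrd49 and the transporter family member Slc16a6 negative ones of -0.46 and -0.45. These 4 were at 0.72, 0.68, -0.43 and -0.21 without the 4 arrays, none called.

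In 17 genes both levels moved in one direction by unequal amounts, 9 with a positive and 8 with a negative difference. Cyp3a2, a cytochrome P450 of drug and testosterone hydroxylation in male rats, had levels (probe set 1370593_at) of 12.52, 12.59, 12.87, 12.58 and 12.46 in vehicle at 24 h and 10.47, 10.61, 10.26, 10.34 and 10.82 at 48 h. At 1000 µM they were 12.62, 12.77, 12.81, 12.73 and 12.47 at 24 h and 12.26, 12.13, 12.04, 12.41 and 12.32 at 48 h. The 3 groups other than vehicle at 48 h lay between 12.04 and 12.87, and all vehicle arrays at 48 h lay below 11. Vehicle fell by 2.11 ± 0.09, a 4.3-fold loss, and the treated level by 0.45 ± 0.09. The effect was 0.08 at 24 h (adjusted p = 0.611) and 1.73 at 48 h (adjusted p = 4.46e-17). The difference of 1.66 ± 0.12 had the smallest adjusted p of all genes, 9.04e-11, and was 1.82 without the 4 arrays (adjusted p = 7.37e-09). Replicate 4 was as low as the other vehicle arrays at 48 h.

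S100a6, a small calcium-binding protein, fell in both conditions. Its levels (probe set 1367661_at) were 14.46, 14.35, 14.42, 14.27 and 14.43 in vehicle at 24 h and 13.87, 13.80, 13.78, 14.17 and 13.63 at 48 h. Treated levels were 13.83, 13.81, 13.88, 13.80 and 13.79 at 24 h and 12.18, 12.31, 12.46, 12.24 and 12.01 at 48 h. Both pairs separated by time, and the treated fall of 1.58 was larger than the vehicle fall of 0.54. The effect went from -0.56 to -1.61, a difference of -1.05 ± 0.11 (adjusted p = 2.14e-07) and -1.37 without the 4 arrays (adjusted p = 2.33e-07).

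Pglyrp1, which recognises bacterial peptidoglycan, followed the same course. Probe set 1387422_at gave levels of 12.70, 13.29, 13.23, 13.25 and 13.37 in vehicle at 24 h and 12.73, 12.43, 12.47, 12.69 and 12.58 at 48 h, and 13, 12.95, 13.02, 12.96 and 12.88 and 11.63, 11.41, 11.66, 11.79 and 11.36 at 1000 µM. The vehicle groups overlapped through replicate 1 at 24 h and the treated groups did not overlap. The difference was -0.80 ± 0.13 (adjusted p = 0.000417), and -0.91 without the 4 arrays (adjusted p = 0.0121). Fads1, the delta-5 desaturase of polyunsaturated fatty acids, rose in both conditions. The levels on probe set 1367857_at were 11.41, 10.60, 10.50, 10.72 and 10.49 in vehicle at 24 h and 12.24, 11.93, 11.94, 11.39 and 11.79 at 48 h, and 11.41, 11.38, 11.32, 11.19 and 11.39 and 13.32, 13.20, 13.15, 13.05 and 13.25 at 1000 µM. The treated groups did not overlap, and the vehicle groups overlapped through replicate 1 at 24 h and replicate 4 at 48 h. The treated rise of 1.85 exceeded the vehicle rise of 1.11 by 0.74 ± 0.18 (adjusted p = 0.0429), and by 1.21 without the 4 arrays (adjusted p = 0.0107).

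Cyp4a1, the fatty acid omega-hydroxylase that is a standard reporter of PPARα in rat liver, was 1 of the 3 genes called at both times in one direction whose effect was smaller at 48 h. On probe set 1368934_at the levels were 12.73, 12.95, 12.69, 13.13 and 12.81 in vehicle at 24 h and 13.94, 13.76, 13.69, 13.53 and 13.61 at 48 h. Treated levels were 15.39, 15.67, 15.58, 15.68 and 15.61 at 24 h and 15.97, 15.67, 15.90, 15.95 and 15.70 at 48 h. Vehicle rose with no overlap, by 0.84 ± 0.08, while the treated arrays rose by 0.25 ± 0.08 and overlapped between times. At 48 h the treated levels, 15.67 to 15.97, lay within the range of Alb, 15.50 to 16.50. An upper limit of the signal was not examined. The effect went from 2.72 to 2.13, a difference of -0.59 ± 0.11 (adjusted p = 0.00556), or -0.41 without the 4 arrays (adjusted p = 0.318). The laminin chain gene Lamb3 also rose more in vehicle (1.61) than at 1000 µM (0.80), a difference of -0.81 ± 0.21 (adjusted p = 0.0479) that shrank to -0.30 without the 4 arrays (adjusted p = 0.785). Csad, an enzyme of taurine synthesis, Pdzph1 and the acute phase serpin Serpina3n had differences of 0.38, 0.61 and -0.34, and 0.35, 0.60 and -0.38 without the 4 arrays, none of those called.

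**Figure D3:**
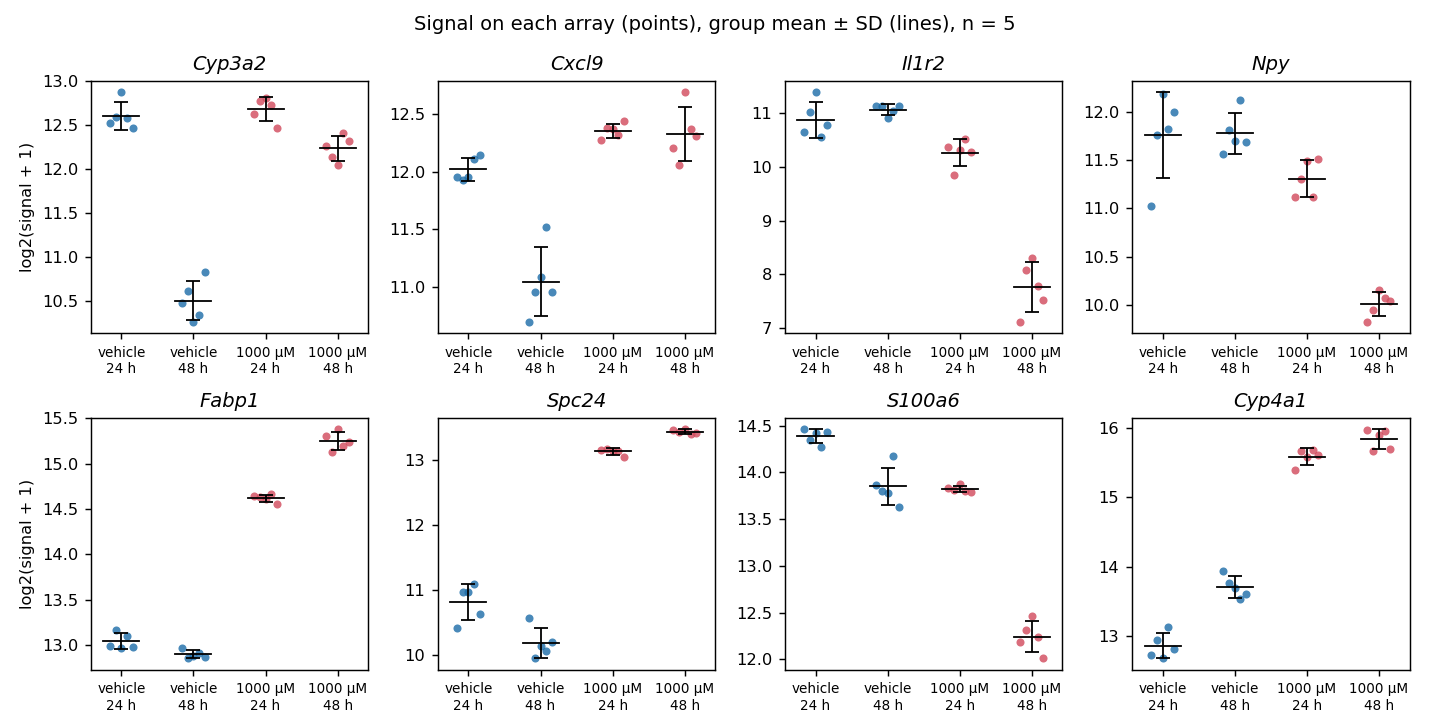
Levels of 8 called genes, log2(signal + 1), on each array of the 4 groups (5 points per group), with the group mean as a bar and the SD as an error bar. Vehicle at 48 h is the low group for Cyp3a2 and Cxcl9, treated at 48 h is the low group for Il1r2, Npy and S100a6, treated levels rise with time for Fabp1 and Spc24, and vehicle rises towards treated for Cyp4a1.

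In terms of the effect at each time, its size was larger at 48 h for 80 of the 102 genes and smaller for 22. The effect was called at both times in one direction for 40 genes, among them Fabp1, Spc24, Aqp7, Acot8 and S100a6, and it grew in 37 and shrank in 3 of these. It was called at 48 h only for 42, among them Cyp3a2, Il1r2 and A2m, and at 24 h only for 13, among them Cebpa, Tcea3, Tm7sf2 and Slc16a6. For 7 genes it was called at both times with opposite signs. Over all 10528 tested genes the effect was called for 2051 (19.5%) at 24 h and 3132 (29.7%) at 48 h. With the actin ratio as a covariate these counts were 2231 and 2315. The share of all tested genes with a larger effect at 48 h was not computed, so the 80 and 22 have no background beside them.

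Acot1, Ehhadh, Pdk4 and Cpt1a, which PPARα regulates, were not among the 102. The thioesterase Acot1 was above vehicle by 6.75 at 24 h and 6.18 at 48 h, with a difference of -0.57 (adjusted p = 0.522). Its vehicle values were 7.35, 7.41, 6.71, 6.67 and 7.31 at 24 h, under the low-signal limit on all 5 arrays, and 9.31, 8.80, 8.37, 7.66 and 6.87 at 48 h. Its treated values were 13.89, 13.72, 13.82, 13.83 and 13.95 and 14.42, 14.29, 14.53, 14.26 and 14.40. With values raised to the limit, the difference was -0.03. Ehhadh, a bifunctional peroxisomal enzyme of fatty acid oxidation, rose with time in vehicle by 1.22 and at 1000 µM by 0.91, and the difference was -0.31 (adjusted p = 0.56), or 0.42 without the 4 arrays. Its vehicle arrays at 48 h were 12.13, 11.62, 11.16, 10.74 and 11.71, lowest in replicate 4. Pdk4, which switches off pyruvate oxidation, and Cpt1a, the carnitine palmitoyltransferase of mitochondrial fatty acid entry, had differences of -0.27 and -0.09 (adjusted p = 0.548 and 0.914).

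Other genes looked at by name were also uncalled. Ccn2, a matricellular protein gene with effects of -2.84 at 24 h and -2.74 at 48 h, had a difference of 0.10 (adjusted p = 0.84). Cyp7a1, which starts bile acid synthesis as its rate-limiting step, had effects of -1.0 and -1.33 and a difference of -0.33 (adjusted p = 0.509). Alb and Cyp3a23-3a1, a second P450 of the 3A family, had 0.11 and 0.04 (adjusted p = 0.858 and 0.925). Treated levels of Cyp3a23-3a1 were 16.13 ± 0.21 and 16.10 ± 0.10 at 24 and 48 h, and vehicle levels 16.04 ± 0.16 and 15.96 ± 0.08 (SD, n = 5). Its change with time in vehicle was -0.08 (adjusted p = 0.488). Close P450 copies can share probe sequence, which was not tested. For the high levels of Alb and Cyp3a23-3a1, too, an upper limit of the signal was not examined.

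Gene lists were described by their counts and medians beside all tested genes, whose median difference was -0.02 and of which 0.969% were called. Of all 10528 tested genes, 1731 rose and 1232 fell with time in vehicle, against 1043 and 854 at 1000 µM. With the actin ratio as a covariate, the genes moving with time in vehicle went from 2963 to 750. Of 34 tested PPARα-regulated lipid handling genes, Fabp1 and Aqp7 had positive and Cyp4a1 and Txnip negative calls, and the list median was -0.03. Of 17 peroxisomal beta-oxidation genes 1 was called, Acot8, with a median of 0.05, and of 22 mitochondrial beta-oxidation and ketogenesis genes none, with a median of 0.03. Of 24 CAR- and PXR-regulated drug metabolism genes, Cyp3a2 and Cyp2a2 were called upwards and the median was 0.13. In that list 5 genes rose and 10 fell with time in vehicle, against 5 and 6 at 1000 µM. The cholesterol synthesis list rose with time in both conditions, 13 of 20 genes in vehicle and 16 of 20 at 1000 µM, and its median difference was 0.20 with Tm7sf2 as the 1 call, although Tm7sf2 fell in vehicle. Fatty acid and triglyceride synthesis did likewise, with 13 and 14 of 22 genes rising, a median of 0.11 and Fads1 called. Without the 4 arrays of raised actin ratio the medians were -0.01 (PPARα-regulated), 0.13 (peroxisomal) and 0.11 (mitochondrial). They were 0.18 for CAR and PXR, 0.19 for cholesterol and 0.30 for fatty acid and triglyceride synthesis.

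Inflammatory and secreted protein lists had calls in both directions. Of 24 acute phase genes, A2m, Serpina3n and Apcs were called downwards and Crp upwards, with a median of -0.09. Of 22 chemokine, interleukin-1 and NF-kB genes, Il1r2 was the 1 called, and the median was -0.15. The called chemokine gene Cxcl9, with a difference of 0.94, was not a member of that list. In that list 10 genes rose and 6 fell with time in vehicle, against 3 and 4 at 1000 µM. Among all tested genes 28.1% moved with time in vehicle and 18% at 1000 µM. Of 18 complement genes Mbl1 was called upwards and C1s downwards (median -0.06), and of 29 plasma and hepatocyte marker proteins Cebpa and Asgr1 upwards and Ahsg downwards (median 0.00). Of 34 urea cycle and amino acid genes Hgd, Csad and Aldh4a1 were called upwards (median 0.08). Without the 4 arrays of raised actin ratio the medians were -0.02 (acute phase), -0.12 (chemokine) and -0.06 (complement). They were -0.03 for plasma and hepatocyte markers and 0.07 for urea cycle and amino acid genes. Txnip, Apcs, Crp, Ahsg and Aldh4a1 were named after their values were seen.

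Structural and housekeeping lists had few calls. S100a6 was the 1 of 34 actin cytoskeleton and dedifferentiation genes (median -0.09), and Fn1 and Lamb3 the 2 of 25 matrix genes (median -0.05), all downwards. Spc24 and Tk1 were the 2 of 25 cell cycle genes (median 0.11), both upwards, Cryab the 1 of 13 heat shock genes (median -0.09), Ccng1 the 1 of 12 p53 targets (median 0.01), Gsta3 the 1 of 20 NRF2 targets (median 0.10) and Cyp8b1 the 1 of 17 bile acid genes (median -0.07). Without the 4 arrays of raised actin ratio the medians were -0.09 (actin cytoskeleton), 0.07 (matrix), -0.04 (cell cycle) and -0.02 (heat shock). They were -0.04 for p53 targets, 0.17 for NRF2 targets and 0.24 for bile acid genes. No gene was called among 76 subunits of oxidative phosphorylation. Of these, 67 had a difference above 0 against 46.3% of all tested genes, with a median of 0.07. In vehicle 34 of the 76 fell with time and 0 rose, against 7 and 1 at 1000 µM. Among all 10528 tested genes 1232 fell with time in vehicle and 854 at 1000 µM. Without the 4 arrays of raised actin ratio the list median was -0.02. No gene was called in the lists of cytosolic (44) or mitochondrial (73) ribosomal proteins, proteasome subunits (33) or the unfolded protein response (28). The same held for interferon-induced genes (21), glucose handling (15), metal handling (12) and AhR targets (6). The called genes Cxcl9, which interferon-gamma induces, and Pfkp, which is glycolytic, were in none of these lists. The medians of these lists lay between -0.07 and 0.08, and between -0.11 and 0.12 without the 4 arrays.

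**Figure D4:**
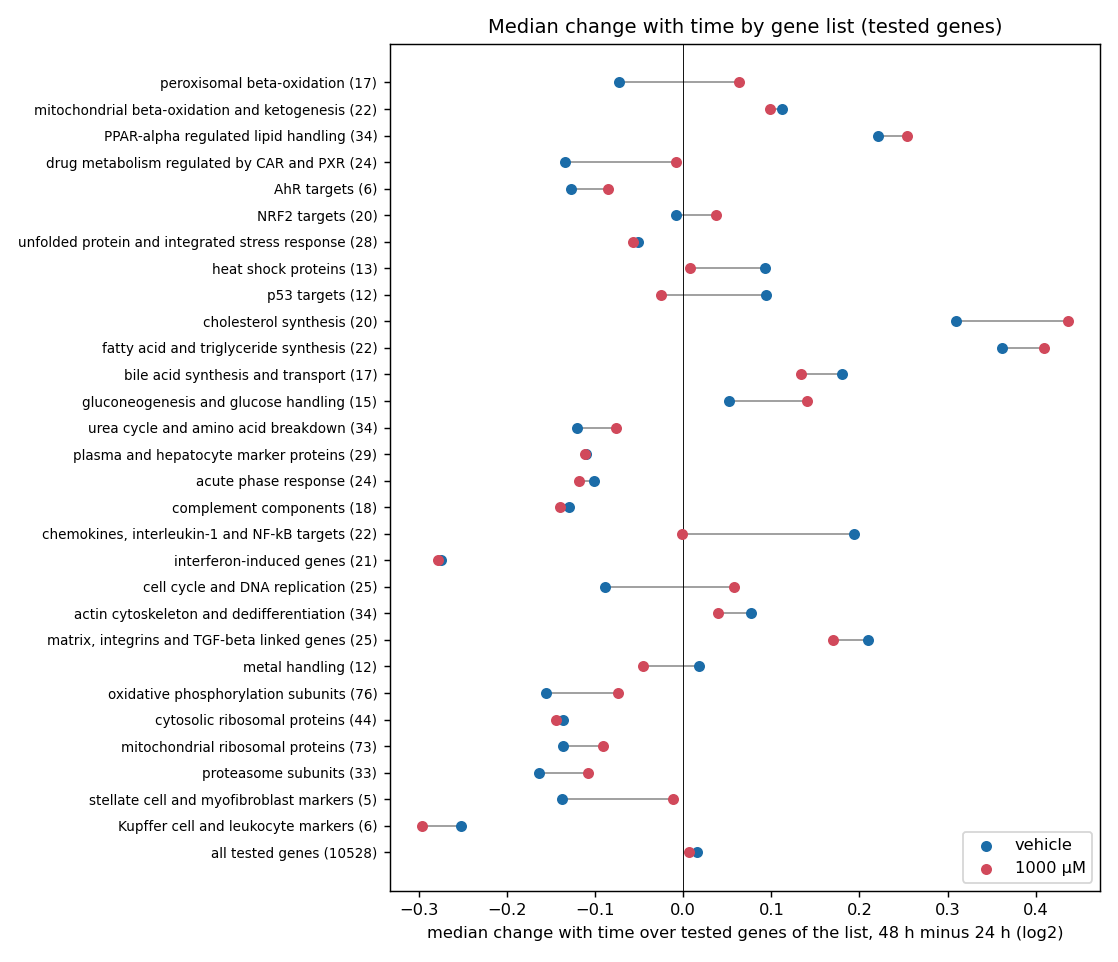
Median change with time, 48 h minus 24 h in log2, over the tested genes of each list (number in brackets; lists of at least 5 tested genes) in vehicle (blue) and at 1000 µM (red). Cholesterol and fatty acid synthesis lie furthest right in both conditions, the chemokine list lies at 0.19 in vehicle and 0.00 at 1000 µM, and all tested genes lie at 0.02 and 0.01.

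Without the 4 vehicle arrays of raised actin ratio, 38 genes were called in all, and 18 of the 102 were among them. These were Cyp3a2, Cyp2a2, Fabp1, Acot8, Fads1, Gstt3, Cebpa, Tcea3, Spc24, Il1r2, Npy, S100a6, Pglyrp1 and Cryab, and also Upb1, Aldh4a1, Lect2 and Slc50a1, which were named after their values were seen. They made up 2 of the 37 genes with only a vehicle change, 8 of the 39 with only a treated change, 2 of the 9 opposed and 6 of the 17 in one direction. No difference among the 102 turned its sign. The median ratio of the size without the arrays to the size with them was 0.904, with 18 genes under 50%. With the actin ratio as a covariate, 57 of the 102 were kept, 14 of 37, 26 of 39, 6 of 9 and 11 of 17 in the same order. A fit with any other vehicle array as the only one at 48 h kept 65 (replicate 1), 20 (replicate 2), 25 (replicate 3) and 18 (replicate 5).

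The difference between times at 250 µM uses the same vehicle arrays, so its values are set beside those at 1000 µM without a count of shared calls. It called 880 genes (8.36%), 404 upwards and 476 downwards. Cyp3a2 had 1.45 ± 0.12 at 250 µM and 1.66 ± 0.12 at 1000 µM. Fabp1 had 1.02 ± 0.07 and 0.78 ± 0.07, and S100a6 had -1.0 ± 0.11 and -1.05 ± 0.11. For Cyp4a1 the values were -0.44 ± 0.11 and -0.59 ± 0.11, and for Gpx8 -0.61 ± 0.26 (adjusted p = 0.135) and -1.17 ± 0.26. The group means of Il1r2 at 48 h lay under the low-signal limit at both doses, though single arrays were above it. With array values raised to that limit, the Il1r2 differences were -2.35 at 250 µM and -2.45 at 1000 µM.

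A contrast free of vehicle arrays set the change with time at 1000 µM against that at 250 µM. It called 2 of all tested genes (0.019%), Ints7 at 2.18 ± 0.37 (adjusted p = 0.0171) and the interferon-induced Isg15 at 1.06 ± 0.19 (adjusted p = 0.024), both named after their values were seen and neither among the 102. For the 102 genes it ran from -0.55 to 0.34 where array values under the low-signal limit were raised to it, which moved Il1r2 from 0.67 to -0.10 and no other gene. None was called, and 23 had an unadjusted p under 0.05 in limma, against 768 of all 10528 tested genes. The 102 were selected by a contrast that holds the same change with time at 1000 µM, so these 2 counts are not comparable. For the 102 genes the 95% interval reached a median of 0.209 to either side. Fabp1 had -0.24 ± 0.07 and Cyp3a2 0.20 ± 0.12. For most of the 102 genes a dose difference in the change with time was thus not resolved, which does not show that the doses act alike.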

How the data were processed

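RNA from 30 wells was hybridised to 1 array each, and 20 arrays made up the comparison. The authors deposited linear intensity values, 1 per probe set and array, from MAS5 per the submitters' processing notes, with its settings not given in the sources used. The trimmed mean was 1500.6 to 1500.7 on every array. From 31099 probe sets, 57 controls and the 40% of lowest mean signal (limit 7.88 in log2, signal 234) were left out. Names came from GEO's platform table: 20826 probe sets had 1 gene, 436 several and 9780 none, and for each gene the probe set of highest mean was kept. Log2(signal + 1) was fitted in limma 3.58.1 (R 4.3.3) with 1 mean per group over 30 arrays and moderated variances with a trend. P-values were adjusted over the 10528 tested genes, and a gene was called at an adjusted p under 0.05. The fit was tested on simulated data. The comparison, its classes and the 31 gene lists were chosen with earlier results of these data known. Genes were named by a rule: in each class and direction the 3 called genes of largest difference, the 2 called members of smallest p in each list, and a fixed set (Acot1, Cyp4a1, Ehhadh, Cpt1a, Pdk4, Fabp1, Cyp7a1, Cyp3a23-3a1, Alb, Spc24, Il1r2, Ccn2). Alternatives were another scaling, offset, filter, variance model and set of arrays. Groups of array measures were compared with exact permutation tests.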

Additional observations from a re-analysis of the deposited data

Results flagged for a closer look

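The 1000 µM effect differed between 24 and 48 h, by limma's test of the difference itself, for the 42 called genes that the naming rule gave. Positive log2 differences, meaning a higher effect at 48 h, were 1.66 for Cyp3a2, 0.94 for Cxcl9, 0.93 for Spc24, 0.92 for Adgrv1, 0.88 for Sult2a6, 0.83 for Ugt2a1, 0.78 for Fabp1, 0.74 for Fads1, 0.71 for Gstt3, 0.70 for Sh3bgrl1, 0.66 for Aqp7, 0.63 for Tcea3 and 0.61 for Cebpa. Smaller positive differences were 0.61 for Pdzph1, 0.54 for Mbl1, 0.51 for Cyp8b1, 0.48 for Tk1, 0.48 for Acot8, 0.48 for Hgd, 0.47 for Cyp2a2, 0.42 for Asgr1, 0.41 for Tm7sf2, 0.38 for Csad and 0.29 for Gsta3. Negative differences were -2.70 for Il1r2, -1.31 for Npy, -1.17 for Gpx8, -1.05 for S100a6, -0.87 for Arrdc4, -0.81 for Lamb3, -0.80 for Pglyrp1, -0.78 for A2m, -0.61 for Pfkp, -0.61 for Aff1 and -0.59 for Cyp4a1. Smaller negative ones were -0.52 for Cryab, -0.46 for Ankrd49, -0.45 for Slc16a6, -0.41 for C1s, -0.41 for Fn1, -0.34 for Ccng1 and -0.34 for Serpina3n. Between the doses, the change with time differed by 2.18 for Ints7 and 1.06 for Isg15, both higher at 1000 µM.

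Single arrays stood apart from the other 4 of their group, by Dixon's ratio above 0.71, in 16 of 212 groups of values examined. Chance alone puts about 1 in 20 groups past that value. In vehicle at 24 h, replicate 1 was the lowest for A2m (15.26) and Pglyrp1 (12.70) and the highest for Ccng1 (13.80) and Fads1 (11.41), while replicate 3 was the highest for Ankrd49 (11.62) and replicate 4 for Arrdc4 (11.81). In vehicle at 48 h, replicate 4, the array of low actin ratio, was the lowest for Arrdc4 (11.98) and the highest for Asgr1 (13.14). At 1000 µM and 24 h, replicate 1 was the lowest for Alb (15.50) and Cyp3a23-3a1 (15.77), replicate 5 the lowest for Gsta3 (13.93) and Spc24 (13.05), and replicate 3 had the highest actin ratio (1.304). At 1000 µM and 48 h the lowest arrays were replicate 3 for Arrdc4 (10.58), replicate 1 for Cryab (12.42) and replicate 5 for Gpx8 (8.20). No array was left out of the main values for these reasons.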

How the results depend on the processing

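The difference of differences called 102 genes. It called 16 with array medians set equal, 157 after quantile normalization, 36 from the 20 arrays alone, 65 without a variance trend, 295 with array weights, 38 without the 4 vehicle arrays, and 432, 30, 45 and 32 with replicate 1, 2, 3 or 5 as the only vehicle array at 48 h. Leaving out 1 array gave 63 to 322. An added alternative, the actin ratio as a covariate in the 20 arrays, was chosen after seeing the data and gave 30. In that order of alternatives, where the count moved by over 1.5 times, the vehicle-only class held 5, 60, 10, 22, 141 and 9 genes, then 264, 12 and 16 (replicates 1, 2 and 5), 15 with the actin covariate in all arrays, 6 with the added alternative, and 18 to 191 by single arrays. The treated-only class held 6 (medians equal), 63 (quantile), 15 (20 arrays), 85 (weights), 11, 12 and 8 (replicates 2, 3 and 5), 18 (added) and 25 to 69. The opposed class held 1 (medians equal), 4 (20 arrays), 20 (weights), 3 (actin covariate), 1 (without the 4), 14, 2, 3 and 3 (each replicate), 1 (added) and 4 to 20. The one-direction class held 4 (medians equal), 7 (20 arrays), 10 (no trend), 48 (weights), 11 (actin covariate), 1 (without the 4), 94, 5, 4 and 5 (each replicate), 5 (added) and 8 to 56. The class with neither change called held 1 gene with weights, 2 with the actin covariate and 3 with replicate 1 alone. The array left out for the highest count was vehicle replicate 4 at 48 h.

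Time in vehicle called 750 genes with the actin covariate, 146 without the 4 arrays, 1158, 1542 and 1080 with replicate 2, 3 or 5 alone, and 483 with the added alternative. Time at 1000 µM called 876 with medians equal. The effect at 24 h called 1291 with medians equal, and the effect at 48 h 1177 without the 4 arrays, 1448, 1649 and 1311 with replicate 2, 3 or 5 alone, and 2036 with the added alternative. The 250 µM difference called 152 (medians equal), 2118 (weights), 248 (actin covariate), 58 (without the 4), 383, 570 and 336 (replicates 2, 3 and 5) and 609 to 1789 by single arrays. The contrast of doses in time called 1 gene with medians equal, after quantile normalization, without the 4 arrays and with replicate 1, 2, 3 or 5 alone, 0 without a variance trend (limma, with 768 at an unadjusted p under 0.05 when the trend was kept), and 0 to 2 by single arrays.

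Adding 16 before log2 kept all 102 calls, quantile normalization 98, leaving out 60% of probe sets 101 of 101 tested, and no filter 80. Array weights kept 101, no variance trend 63, the 20 arrays alone 35, the actin covariate in the 20 arrays 26 and equal array medians 16. No difference among the 102 turned its sign in the alternatives of scaling, offset, filter, variance model or covariate, nor without the 4 vehicle arrays. The uncalled Ehhadh turned from negative to positive without those 4 arrays. Of the 102 calls, 50 were kept whichever single array was left out. The causes of these shifts were not tested. The number of arrays limits precision: in simulated data for this comparison, with 10528 genes, 30% of shifts of 0.5 and 76% of shifts of 1 were called. The titles number the arrays in 1 run, and each round of the run holds 1 array of every group, without saying what a round shares. The round as a replicate block, also added after seeing the data, called 124 genes in the difference of differences, 100 of the 102 among them, and moved no count by over 1.5 times. Deviations from the group means correlated between same-round arrays at -0.10 to 0.14 (median 0.02), with 5 of 30 pairs over 0.1.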
